A study of Mus musculus with 6 samples.

Results

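The 46 interferon-stimulated genes described here were taken by gene symbol from a table of 22513 gene entries, and each symbol had 1 entry. The list was chosen by name, from genes known to be switched on by interferons. The rule uses no measured value, but earlier results of these data were known when the list was chosen. All 46 passed the filter on low values, a mean of at least 0.1 FPKM over the 6 libraries, which left 15894 genes for testing.

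RNA was sequenced from fetal thymus organ culture (FTOC), in which thymic lobes of C57BL/6 embryos were kept for 4 days with 2-DG (2'-deoxyguanosine), a nucleoside that kills haematopoietic cells and leaves mainly stroma. Wild-type (WT) stroma was compared with stroma of Jmjd6-/- embryos, which lack the nuclear oxygenase Jmjd6 in every cell, epithelial or not. In each genotype 1 library came from unstimulated stroma and 2 came from stroma given RANKL, a TNF family cytokine that drives medullary thymic epithelial cells (mTECs) to express Aire, for 4 days. All 4 conditions shared the 2-DG treatment. The 2 RANKL libraries of a genotype are called samples in the methods and a technical duplicate in the series description, so p-values measured the spread between libraries, which may be technical only.

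Interferons are secreted proteins that bind cell-surface receptors and activate the kinases Jak1 and Tyk2 (type I and III) or Jak1 and Jak2 (type II). Factors that these kinases activate then bind the interferon-stimulated response element (ISRE), in a complex that holds Stat2 and Irf9, or the gamma-activated site (GAS). The genes switched on encode sensors and degraders of viral RNA, ubiquitin-like modifiers, GTPases and chemokines. In the thymus, mTECs and dendritic cells are known to produce interferons without infection.

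Promoters of 4 members are shown with values described further on, because they carry the letters of these elements: Isg15 for a run of overlapping ISRE cores, Ifit3 for 2 separate ones, Oas3 for a single one in the gene with the widest gap between genotypes, and Igtp for both kinds. The windows were those of RefSeq (GRCm38.p6, the build that mm10 names), 250 bases before to 50 bases after the start, written 5′ to 3′ on the strand of the gene. Isg15 was at chr4:156200769-156201068 on the minus strand, Ifit3 at chr19:34583279-34583578 on the plus strand, Oas3 at chr5:120777610-120777909 on the minus strand and Igtp at chr11:58199306-58199605 on the plus strand. Capitals mark the ISRE core GAAANNGAAA, on either strand, and in Igtp also the GAS core TTCNNNGAA, which reads the same on both strands.
Isg15: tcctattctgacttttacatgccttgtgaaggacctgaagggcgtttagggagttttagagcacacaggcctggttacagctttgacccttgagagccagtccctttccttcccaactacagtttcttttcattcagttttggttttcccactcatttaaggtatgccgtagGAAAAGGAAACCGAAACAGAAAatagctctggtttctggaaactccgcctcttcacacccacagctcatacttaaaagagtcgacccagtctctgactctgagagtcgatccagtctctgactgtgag
Ifit3: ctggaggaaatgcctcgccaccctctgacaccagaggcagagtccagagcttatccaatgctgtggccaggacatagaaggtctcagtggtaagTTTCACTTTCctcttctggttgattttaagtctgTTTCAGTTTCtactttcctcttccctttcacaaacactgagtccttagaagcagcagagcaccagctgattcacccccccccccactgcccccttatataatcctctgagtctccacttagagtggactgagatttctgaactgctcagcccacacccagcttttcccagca
Oas3: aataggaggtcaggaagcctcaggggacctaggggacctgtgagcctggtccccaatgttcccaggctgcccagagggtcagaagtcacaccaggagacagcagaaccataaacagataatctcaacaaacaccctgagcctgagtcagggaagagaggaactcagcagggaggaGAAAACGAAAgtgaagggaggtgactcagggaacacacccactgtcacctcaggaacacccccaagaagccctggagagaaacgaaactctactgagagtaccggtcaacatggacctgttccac
Igtp: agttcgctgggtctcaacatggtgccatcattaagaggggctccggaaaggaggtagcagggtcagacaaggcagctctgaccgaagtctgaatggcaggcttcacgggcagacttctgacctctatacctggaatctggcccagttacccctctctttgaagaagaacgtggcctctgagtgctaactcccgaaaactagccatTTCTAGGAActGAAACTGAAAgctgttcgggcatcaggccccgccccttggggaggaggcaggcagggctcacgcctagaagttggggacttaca
In Isg15 the 3 cores began 78, 72 and 66 bases before the start and overlapped one another. In Oas3 the core began 75 bases before the start, and in Igtp the GAS core, 45 bases before the start, lay next to an ISRE core 34 bases before it.

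Windows were found for 35 of the 46 members, and 17 of these 35 (48.6%) held an ISRE core against 3.99% of 27025 genes with a window. The GAS core was in 6 of the 35 (17.1%) against 9.55% of all genes. The 17 members with an ISRE core had a median difference between genotypes of -1.12 with RANKL, on the log2 scale of FPKM, against -0.96 in the 18 without one. With RANKL itself their median rise was 1.57 against 0.96. Without RANKL the median differences between genotypes were -1.39 with the ISRE core and -1.34 without it. The 6 members with a GAS core had a median difference of -1.30 with RANKL, against -0.96 in the 29 without one. Their median rise was 1.52 against 1.11, and their median difference without RANKL was -1.25 against -1.39. The 11 members without a window entered none of these medians. They were Dhx58, Ifi27l2a, Mx1, Mx2, Oas2, Parp9, Parp14, Rtp4, Tor3a, Usp18 and Zbp1. An element outside the window, or one with other letters, was not counted. The letters were counted as such, and binding of any factor was not measured.

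The libraries matched their labels. Jmjd6 stood at 26.3 FPKM in unstimulated WT stroma and at 25.9 and 32.5 with RANKL, against 1.32 and then 1.96 and 1.78 in Jmjd6-/- stroma. Aire, the mTEC transcription factor that RANKL induces, was at 0.142 and 0.473 FPKM in unstimulated WT and Jmjd6-/- stroma and between 67.1 and 79.7 FPKM in the 4 RANKL libraries. Depth, read from the size of the steps by which low FPKM values differ, ranged from 1.55e+07 to 3.09e+07 fragments a library, and the thinnest value of any member rested on about 12.8 fragments. No marker of thymic epithelium (20 listed) passed the test between genotypes with RANKL. At an unadjusted p under 0.05, 6 were higher in Jmjd6-/- stroma, against 6.52% of all genes. The 9 mTEC markers summed to 1209 to 1702 FPKM in WT and 2022 to 2132 FPKM in Jmjd6-/- libraries. Most of each sum was Krt5, at 1006 to 1548 FPKM in WT and 1879 to 1977 FPKM in Jmjd6-/- libraries. With RANKL, Aire, Cd40, Fezf2 and Cldn3 had log2 differences from -0.36 to -0.05, and the other mTEC markers were higher in Jmjd6-/- stroma. The 20 markers of leukocytes, macrophages, conventional dendritic cells and the T lineage that were high enough to be tested also held none that passed. Of these, 3 were lower and 1 was higher at an unadjusted p under 0.05, against 12.3% and 6.52% of all genes. The T lineage list summed to at most 3.52 FPKM. Macrophage markers were still present after 2-DG, summing to between 314 and 505 FPKM over the 6 libraries. The summed level of 5 endothelial markers was 22.1, 10.4 and 11.6 FPKM in WT libraries (unstimulated first) and 7.15, 3.74 and 3.23 in Jmjd6-/- libraries, with 3 of the 5 markers lower by the test. The 6 mesenchymal markers summed to 588, 611 and 573 FPKM in WT and 278, 372 and 356 FPKM in Jmjd6-/- libraries, and 2 of the 6 were lower by the test. None of these 11 defining markers was at 0, and the part of endothelium or mesenchyme in the differences described below was not tested. In whole stroma, fewer cells of a type and less RNA per cell cannot be told apart. The 2 RANKL libraries of a genotype also differed among themselves, since 34 of the 46 members were higher in WT replicate 2 than in replicate 1 (46.5% of all genes), whereas 45 were lower in Jmjd6-/- replicate 2 than in replicate 1 (53.1% of all genes). Over all genes tested, the median absolute log2 difference between replicates was 0.302 in WT and 0.0948 in Jmjd6-/- stroma. Over the members it was 0.191 and 0.216. The fit pooled the spread of both genotypes.

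**Figure D1:**
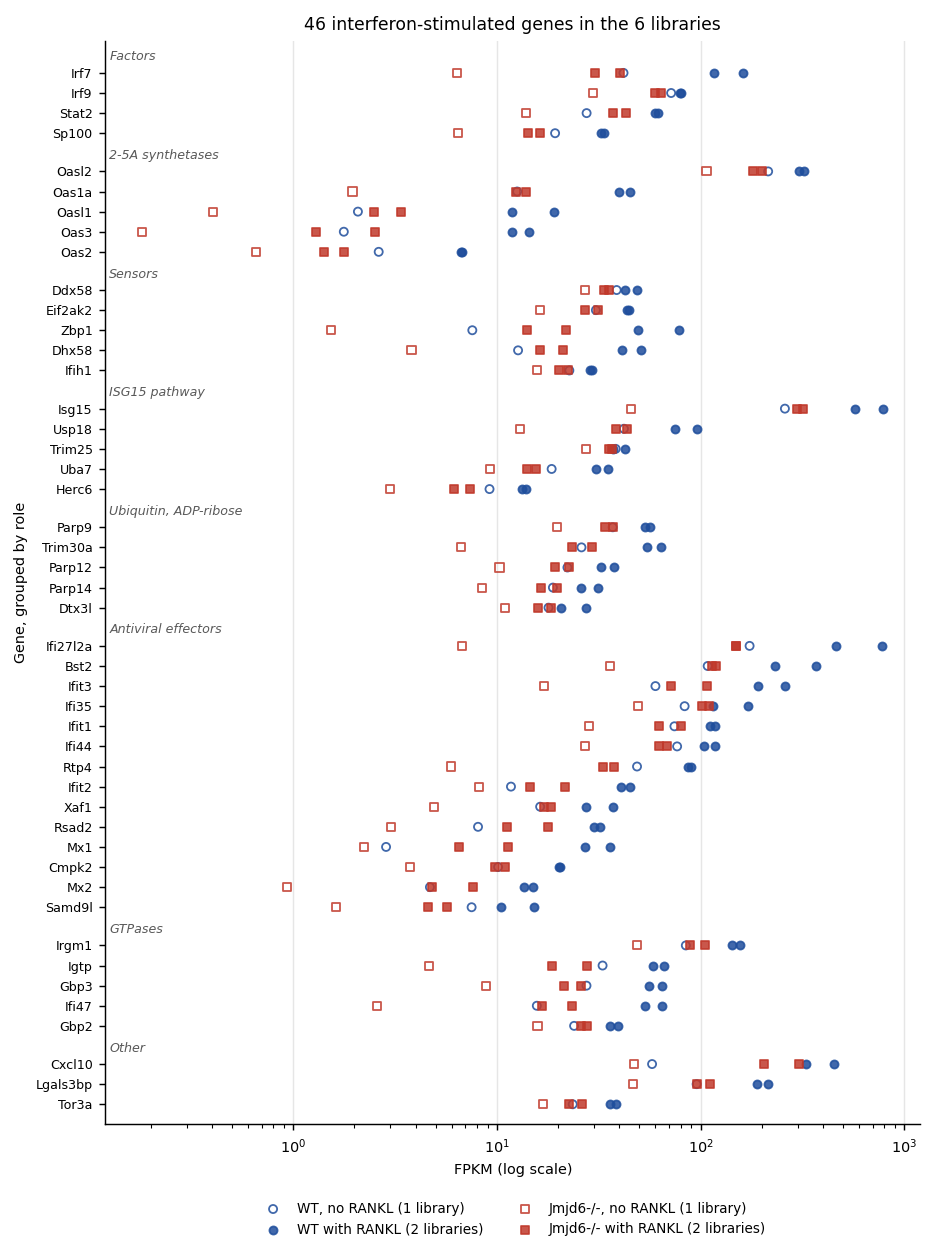
FPKM (log scale) of each of the 46 genes, grouped by role, in the 6 libraries: open symbols are unstimulated stroma (1 library a genotype), filled symbols are RANKL-treated stroma (2 libraries a genotype), blue circles are WT and red squares are Jmjd6-/-. For every gene the filled red squares lie left of the filled blue circles and the open red square lies left of the open blue circle.

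Interferon-stimulated genes were lower in Jmjd6-/- stroma in both conditions. With RANKL, 46 of 46 members had 2 Jmjd6-/- values below the lower WT value, an order found in 26.2% of all genes tested, and the median member was 2.11-fold lower. By limma, 20 of the 46 members fell at an adjusted p under 0.05, where 1.82% of all genes did, and none was higher, also at an unadjusted p under 0.05. At that unadjusted p the count of lower members was 44, against 12.3% of all genes. The median log2 difference of the members was -1.08 (range -2.79 to -0.13), beside 0.01 over all genes. The count of 20 depended on single libraries: it was 3 without Jmjd6-/- replicate 2 (0.428% of all genes were lower), 5 without WT replicate 2 (0.937%) and 33 without WT replicate 1 (10.9%), while the median stayed between -1.16 and -0.89 whichever RANKL library was left out. The count was 0 with no filter on low values, 8 with no trend of the spread with the level, and 40 with additive terms over all 6 libraries.

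Without RANKL, where each genotype had 1 library and no test could be made, the Jmjd6-/- value was the lower for all 46 members, against 49.1% of all genes. It was more than 2-fold lower for 31 members, against 3.45% of all genes. The median unstimulated member was 2.77-fold lower, with a median log2 difference of -1.46 and a range from -4.67 (Ifi27l2a) to -0.29 (Cxcl10). The unstimulated and the RANKL-treated libraries are separate libraries, and the members kept a similar order in both: across the 46 genes, which are not independent, the log2 differences with and without RANKL had a Pearson r of 0.69 and a Spearman rho of 0.75, beside 0.47 and 0.50 across all genes. The members together took 0.387% of the FPKM total in unstimulated WT stroma and 0.147% in unstimulated Jmjd6-/- stroma. With RANKL these shares were 0.840% and 0.943% for WT and 0.466% and 0.391% for Jmjd6-/- libraries.

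**Figure D2:**
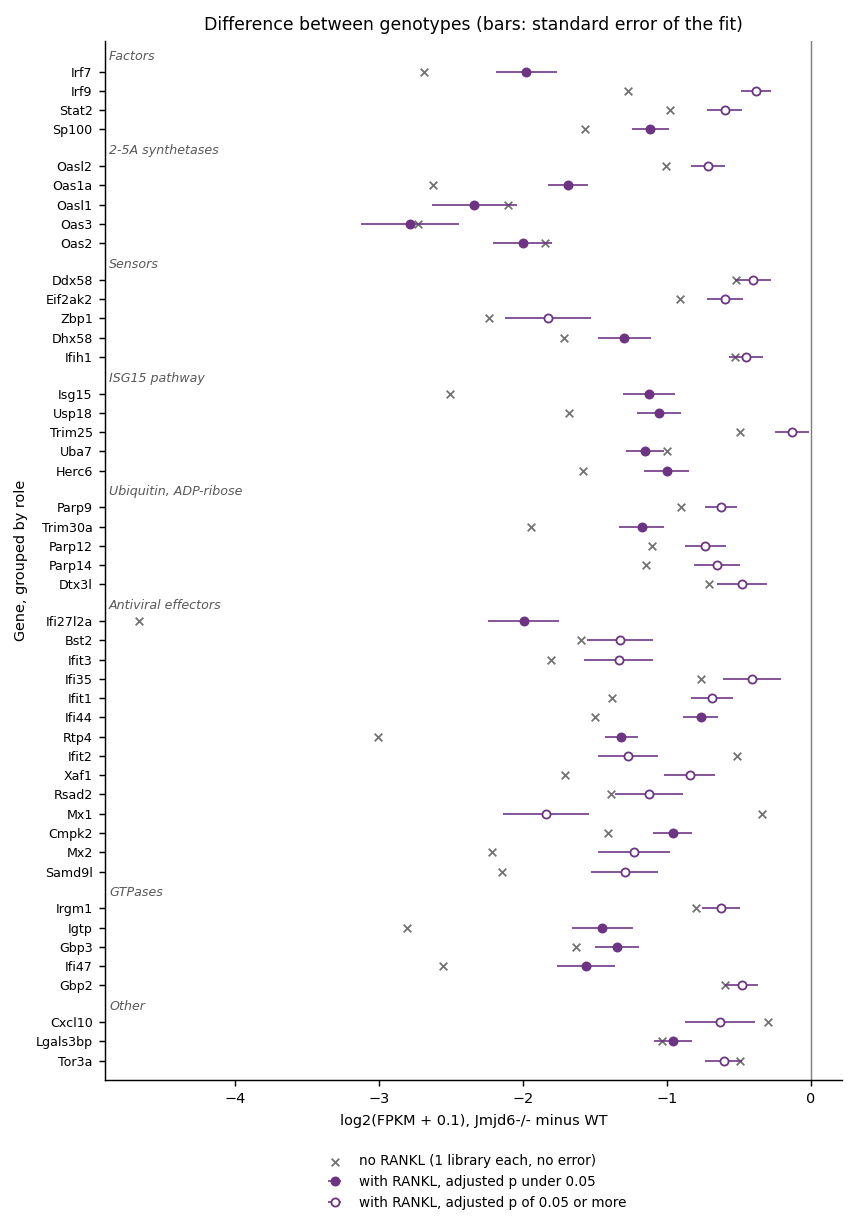
Difference between Jmjd6-/- and WT stroma in log2(FPKM + 0.1) for each gene, with RANKL (circles with the standard error of the fit, filled for the 20 genes with an adjusted p under 0.05) and without RANKL (crosses, 1 library a genotype). All points lie left of 0, and the crosses spread further, down to -4.67 for Ifi27l2a.

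The 4 members grouped as factors did not differ equally. Irf7 (chr7:141263183-141266424), the factor that amplifies interferon production once interferon signalling has begun, was at 41.9 FPKM in unstimulated WT stroma and at 117 and 162 FPKM with RANKL. In Jmjd6-/- stroma it was at 6.41 FPKM, then at 40.1 and 30.3 with RANKL. Both stimulated Jmjd6-/- libraries thus lay below the unstimulated WT library, and the genotype difference with RANKL was -1.98 on the log2 scale (SE 0.21, adjusted p = 0.028). Sp100 (chr1:85650050-85709448), a component of PML nuclear bodies, was at 19.3 FPKM without and 32.6 and 33.7 FPKM with RANKL in WT stroma, and at 6.46, 16.3 and 14.2 FPKM, in the same order, in Jmjd6-/- stroma. Its difference was -1.12 (SE 0.13, adjusted p = 0.028). Stat2 and Irf9, both parts of the complex that binds the ISRE, were closer between the genotypes. With the unstimulated library given first here and below, Stat2 (chr10:128270576-128292849) was at 27.6, 59.5 and 61.9 FPKM in WT and 13.9, 43.1 and 37.2 FPKM in Jmjd6-/- stroma, a difference of -0.60 (SE 0.12) that did not pass the test (adjusted p = 0.075). Irf9 (chr14:55603985-55610030) was at 71.7, 79.8 and 80.3 FPKM in WT and at 29.7, 63.7 and 59.6 FPKM in Jmjd6-/- stroma, a difference of -0.38 (SE 0.10, adjusted p = 0.136). Irf9 therefore stood 2.42-fold apart without RANKL and 1.3-fold apart with it.

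The 2-5A synthetase family showed the widest gaps of the 8 roles, with a median log2 difference of -2.00 and 4 of 5 members lower by the test. These enzymes answer double-stranded RNA by making short oligoadenylates that switch on RNase L. Oas3 (chr5:120753098-120777659) was at 1.77 FPKM in unstimulated WT stroma and 11.9 and 14.4 FPKM with RANKL, against 0.182 and then 2.53 and 1.29 FPKM in Jmjd6-/- stroma. It was the member with the largest difference under RANKL, -2.79 (SE 0.34, adjusted p = 0.0297), though its lowest value is near the added constant of 0.1. Oas2 (chr5:120730333-120749848), its neighbour, was at 2.63, 6.65 and 6.71 FPKM in WT and 0.659, 1.78 and 1.42 FPKM in Jmjd6-/- stroma. Here the stimulated Jmjd6-/- libraries stayed below unstimulated WT, and the difference was -2.00 (SE 0.21, adjusted p = 0.0279). Oas1a (chr5:120896257-120907525) was at 12.6, 40.0 and 45.1 FPKM in WT and 1.96, 13.9 and 12.4 FPKM in Jmjd6-/- stroma, a difference of -1.69 (SE 0.14, adjusted p = 0.0279). Because Oas1a has close copies beside it, its reads may be shared with them. Oasl1 (chr5:114923240-114937911), a relative without synthetase activity, was at 2.08, 11.9 and 19.2 FPKM in WT and 0.406, 3.39 and 2.49 FPKM in Jmjd6-/- stroma (-2.34, SE 0.30, adjusted p = 0.0316). Oasl2, the most abundant of the family, was at 214.8 to 320.5 FPKM in WT and 107 to 200.3 FPKM in Jmjd6-/- stroma, and its difference of -0.72 had an adjusted p of 0.0512.

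In the ISG15 pathway, 4 of 5 members were lower in Jmjd6-/- stroma by the test. Isg15 (chr4:156199424-156200818), a ubiquitin-like protein joined to other proteins and the member with the highest mean FPKM, was at 259.7 FPKM in unstimulated WT stroma and at 575 and 790.2 FPKM with RANKL. In Jmjd6-/- stroma it was at 45.5 FPKM, then at 320.1 and 299 FPKM. The stimulated Jmjd6-/- libraries passed unstimulated WT but stayed below stimulated WT, with a difference of -1.12 (SE 0.18, adjusted p = 0.0486). Uba7 (chr9:107975567-107984056), the enzyme that activates Isg15 for conjugation, was at 18.6, 30.8 and 35.2 FPKM in WT and 9.25, 15.6 and 14.0 FPKM in Jmjd6-/- stroma (-1.15, SE 0.13, adjusted p = 0.028). Herc6 (chr6:57580992-57665136), a ligase that attaches Isg15 in mice, was at 9.21, 13.9 and 13.3 FPKM in WT and 3.00, 7.39 and 6.15 FPKM in Jmjd6-/- stroma (-1.0, SE 0.16, adjusted p = 0.0473). The activating enzyme and the ligase both remained below unstimulated WT after RANKL. Usp18 (chr6:121245906-121270917), the protease that removes Isg15 and also restrains the type I receptor, was at 42.1, 75.2 and 95.7 FPKM in WT and 13.1, 43.4 and 38.4 FPKM in Jmjd6-/- stroma (-1.05, SE 0.16, adjusted p = 0.0406). Trim25, a ubiquitin ligase that acts on the RNA sensor Ddx58, had the smallest difference of all members, -0.13 (adjusted p = 0.628), and lay between 27.3 and 42.4 FPKM in all 6 libraries.

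Among the 5 sensors of nucleic acid 1 was lower by the test, with a median difference of -0.60. Dhx58 (chr11:100694884-100704271), a helicase that tunes the related sensors Ddx58 and Ifih1, was at 12.7, 41.0 and 51.0 FPKM in WT and 3.81, 21.1 and 16.3 FPKM in Jmjd6-/- stroma (-1.30, SE 0.18, adjusted p = 0.0393). Zbp1 (chr2:173206612-173218922), which binds Z-form nucleic acid and can start cell death, was at 7.58, 49.4 and 78.3 FPKM in WT and 1.53, 21.7 and 14.1 FPKM in Jmjd6-/- stroma. Its difference of -1.82 was larger than that of Dhx58 but more variable (SE 0.30), and its adjusted p was 0.0508. Ddx58, Ifih1 and the kinase Eif2ak2 had differences from -0.60 to -0.40 with adjusted p-values from 0.0754 to 0.165. Eif2ak2 shares its entry with the gene model Gm6548.

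Of the 14 IFIT genes and other antiviral effectors, 4 were lower by the test, with a median difference of -1.25. Ifi27l2a (chr12:103442167-103443680), a small hydrophobic membrane protein, was the most uneven member. It was at 174 FPKM in unstimulated WT stroma and 461 and 775 FPKM with RANKL, but at 6.75 FPKM in unstimulated Jmjd6-/- stroma and 149.6 and 149.9 FPKM with RANKL. The gap was thus 25.8-fold without RANKL and 4.13-fold with it (-2.00, SE 0.25, adjusted p = 0.0309). Rtp4 (chr16:23609919-23614222), a chaperone of receptor transport, followed the same course at lower levels, at 48.8, 87.2 and 89.6 FPKM in WT and 5.98, 37.8 and 33.2 FPKM in Jmjd6-/- stroma (-1.32, SE 0.12, adjusted p = 0.0279). Cmpk2 (chr12:26469215-26479837), a mitochondrial nucleotide kinase, was at 10.1, 20.3 and 20.1 FPKM in WT and 3.75, 11 and 9.76 FPKM in Jmjd6-/- stroma (-0.96, SE 0.13, adjusted p = 0.0383). Ifi44 (chr3:151730923-151749959) was at 76.8, 118 and 104 FPKM in WT and 27.1, 68.5 and 62.2 FPKM in Jmjd6-/- stroma (-0.76, SE 0.12, adjusted p = 0.0485). In Ifi44, as in Rtp4 and Cmpk2, the replicates of each genotype differed by less than the genotypes did.

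Mx1 (chr16:97447035-97462906), a dynamin-like GTPase known as an influenza restriction factor and defective in most laboratory strains, C57BL/6 among them, had the reverse course of Ifi27l2a. It was close between the genotypes without RANKL, at 2.86 FPKM in WT and 2.24 in Jmjd6-/- stroma. With RANKL it was at 27.0 and 35.9 FPKM in WT and 11.4 and 6.52 FPKM in Jmjd6-/- stroma, a difference of -1.84 (SE 0.30) with an adjusted p of 0.0504. Ifit2 behaved likewise, 1.43-fold apart without RANKL and 2.38-fold apart with it (adjusted p = 0.0512). Ifit1 and Ifit3, RNA-binding proteins beside Ifit2 on chromosome 19, Rsad2, which makes a chain-terminating nucleotide, Bst2, which tethers budding virions, and Mx2, Xaf1, Samd9l and Ifi35 had differences from -1.34 to -0.41 and adjusted p-values from 0.0557 to 0.365.

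The 5 GTPases that are induced mainly by interferon gamma and act on the membranes around intracellular microbes had 3 members lower by the test, with a median of -1.35. Igtp (chr11:58199556-58207592) was at 33.1, 58.1 and 66.3 FPKM in WT and 4.65, 27.7 and 18.6 FPKM in Jmjd6-/- stroma (-1.45, SE 0.21, adjusted p = 0.0406). Stimulated Jmjd6-/- stroma thus held less Igtp than unstimulated WT stroma. Ifi47 (chr11:49037660-49135387) was at 15.7, 53.3 and 64.8 FPKM in WT and 2.59, 23.5 and 16.7 FPKM in Jmjd6-/- stroma (-1.56, SE 0.20, adjusted p = 0.0336). The entry of Ifi47 carries the name of the olfactory receptor Olfr56 as well and spans Tgtp2. Gbp3 (chr3:142560052-142573212), a guanylate-binding protein, was at 27.6, 55.6 and 64.5 FPKM in WT and 8.84, 25.9 and 21.3 FPKM in Jmjd6-/- stroma (-1.35, SE 0.15, adjusted p = 0.028). Irgm1 and Gbp2 differed by -0.62 and -0.48, with adjusted p-values of 0.0792 and 0.1.

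Of the other ubiquitin and ADP-ribose enzymes, Trim30a alone of 5 passed the test. Trim30a (chr7:104409026-104465193), which dampens Toll-like receptor signalling, was at 26.0, 64.0 and 54.8 FPKM in WT and 6.68, 29.2 and 23.5 FPKM in Jmjd6-/- stroma (-1.18, SE 0.16, adjusted p = 0.0355). Parp9 and its partner Dtx3l, which the table places at a single locus, Parp12 and Parp14 differed by -0.73 to -0.48, with adjusted p-values from 0.0603 to 0.236. Of the 3 remaining members, Lgals3bp (chr11:118392752-118401931), a secreted glycoprotein that binds galectins, was at 95.7, 189 and 215.6 FPKM in WT and 46.8, 111 and 96.5 FPKM in Jmjd6-/- stroma (-0.96, SE 0.13, adjusted p = 0.0374). Cxcl10 (chr5:92331841-92414627), a chemokine that draws Cxcr3-bearing lymphocytes, was at 57.8 FPKM in WT and 47.1 in Jmjd6-/- stroma without RANKL. With RANKL it was at 329 and 450.2 FPKM in WT and 303 and 204 FPKM in Jmjd6-/- stroma. The groups did not overlap, but the replicates of each genotype lay far apart, and the difference of -0.63 (SE 0.24) did not pass the test (adjusted p = 0.254). The locus given for Cxcl10 also spans Cxcl11 and Art3. Tor3a differed by -0.61 (adjusted p = 0.0775).

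The interferon-stimulated genes rose with RANKL in both genotypes. Over both genotypes together, 42 of the 46 members rose at an adjusted p under 0.05, where 10.5% of all genes did, with a median log2 rise of 1.25 beside -0.02 over all genes. The 4 others were Dtx3l, Ddx58, Irf9 and Trim25, at 0.52, 0.29, 0.60 and 0.23 with adjusted p-values from 0.0554 to 0.218. The RANKL libraries lay above the unstimulated library in both genotypes for 45 members, against 25.7% of all genes, with Trim25 the exception. Over all 46 members, called or not, the median fold with RANKL was 1.98 in WT and 2.72 in Jmjd6-/- stroma. In WT stroma alone 27 members rose (6.05% of all genes), and in Jmjd6-/- stroma alone 35 members rose (3.75% of all genes). Without Jmjd6-/- replicate 1 the second of these counts was 19 and without replicate 2 it was 23. Within a genotype the comparison had 1 unstimulated library, so its error came from the RANKL libraries. The comparison over both genotypes was fitted with a term for genotype and a term for RANKL, so that a response that differed between the genotypes added to its error.

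The largest rises over both genotypes were those of Zbp1 (3.23, SE 0.24, adjusted p = 0.000452), Ifi27l2a (3.12, SE 0.55, adjusted p = 0.0125), Oas3 (2.79, SE 0.27, adjusted p = 0.00116), Oasl1 (2.69, SE 0.23, adjusted p = 0.000763) and Mx1 (2.65, SE 0.37, adjusted p = 0.00523). Zbp1 rose 8.42-fold in WT and 11.7-fold in Jmjd6-/- stroma, Oas3 7.42-fold and 10.5-fold, and Oasl1 7.48-fold and 7.24-fold. These folds are ratios of FPKM with no constant added. For Oas3, at 0.182 FPKM in unstimulated Jmjd6-/- stroma, the log2 rises with the constant were 2.82 in WT and 2.76 in Jmjd6-/- stroma. Cxcl10, whose genotype difference did not pass the test, rose 6.74-fold in WT and 5.38-fold in Jmjd6-/- stroma (2.57, SE 0.20, adjusted p = 0.000475). No member was lower with RANKL, also at an unadjusted p under 0.05. By role, 5 of 5 members of the 2-5A synthetase family rose (median 2.22), 14 of 14 antiviral effectors (1.52), 5 of 5 GTPases (1.26), 3 of 4 factors (1.16), 3 of 3 secreted and other members (1.11), and 4 of 5 in each of the ISG15 pathway (0.85), the other ubiquitin and ADP-ribose enzymes (0.83) and the sensors (0.68).

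**Figure D3:**
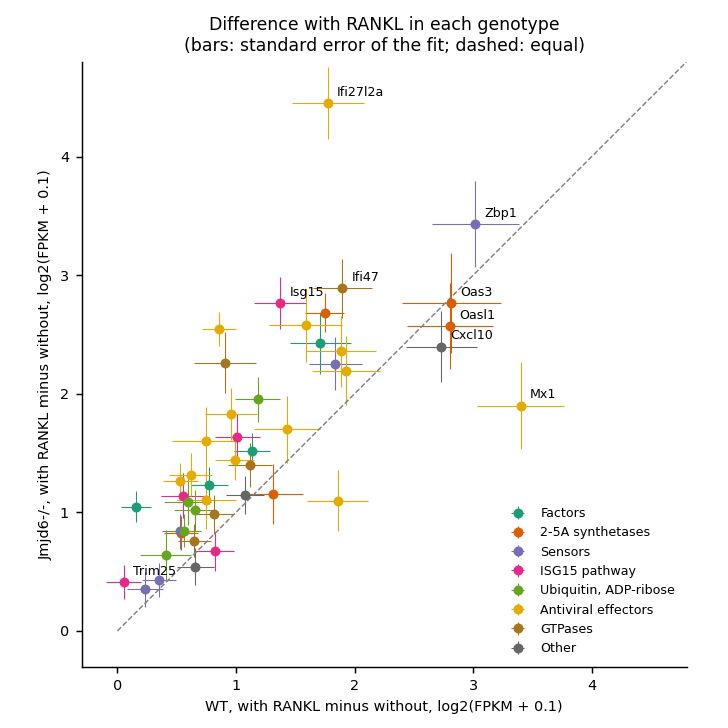
Difference between RANKL-treated and unstimulated stroma in log2(FPKM + 0.1), in WT (horizontal) and Jmjd6-/- stroma (vertical), for each of the 46 genes, coloured by role, with the standard error of the fit and a dashed line of equal difference. Of the 46 points, 38 lie above the line, with Ifi27l2a farthest above it, and Mx1 lies farthest below.

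Whether the response to RANKL itself differed between the genotypes was tested as an interaction. No member, and no gene of all 15894 (0%), passed at an adjusted p under 0.05. At an unadjusted p under 0.05, 11 members had the larger log2 rise in Jmjd6-/- stroma, against 0.742% of all genes, and 1 (Mx1) had the smaller. With the constant of 0.1 added, the log2 rise with RANKL was larger in Jmjd6-/- stroma for 38 members (54.4% of all genes). The median difference over the members was 0.38 on the log2 scale (0.03 over all genes). The gain in FPKM, by contrast, was larger in WT stroma for 40 (49.8% of all genes). The 11 include Ifi27l2a, which rose 3.55-fold in WT and 22.2-fold in Jmjd6-/- stroma, a difference of 2.67 (SE 0.43, unadjusted p = 0.00115, adjusted p = 0.712). Rtp4 rose 1.81-fold and 5.93-fold (1.69, SE 0.20, unadjusted p = 0.000265, adjusted p = 0.702). Isg15 rose 2.63-fold and 6.80-fold (1.39, SE 0.31, unadjusted p = 0.00536, adjusted p = 0.759). Mx1 went the other way: its RANKL values were 11-fold the unstimulated one in WT and 4.0-fold in Jmjd6-/- stroma, where the rise did not pass the test (adjusted p = 0.059), and the difference had an unadjusted p of 0.0307 and an adjusted p of 1. Each of these differences rests on both single unstimulated libraries.

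The median ratio of RANKL-treated Jmjd6-/- stroma to unstimulated WT stroma was 0.99, as it was over all genes tested (0.99). Both stimulated Jmjd6-/- libraries were below the unstimulated WT library for 16 of the 46 members and above it for 18, beside 43.9% and 42.0% of all genes. Cxcl10, at 4.39 times the unstimulated WT level, and Mx1, at 3.13 times, lay highest, and Oas2, at 0.609 times, lay lowest.

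**Figure D4:**
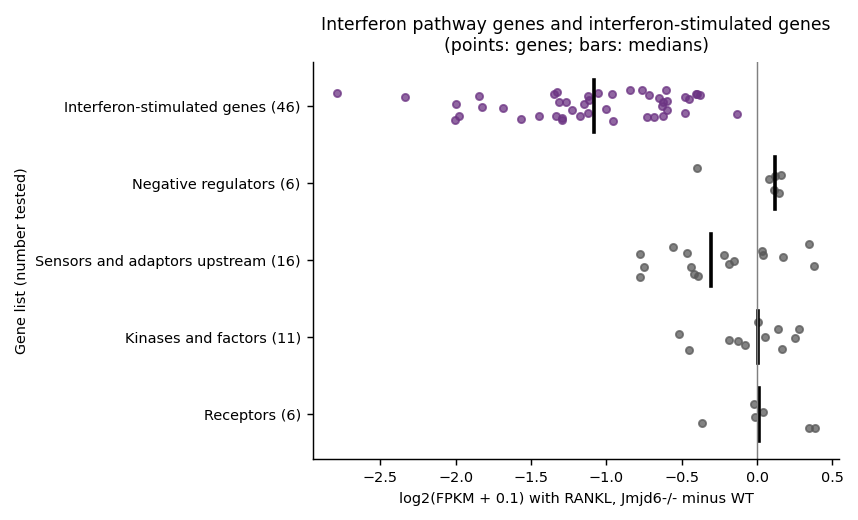
Difference between Jmjd6-/- and WT stroma with RANKL, in log2(FPKM + 0.1), for tested genes of the interferon pathway by list and for the 46 interferon-stimulated genes, with 1 point a gene and a bar at each list's median. The medians of the receptors and of the kinases and factors lie at 0.01 and 0.00, that of the upstream sensors and adaptors at -0.31, that of the negative regulators at 0.12 and that of the interferon-stimulated genes at -1.08.

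Other genes of the interferon pathway were read from a second list, of 63 symbols, of which 58 had an entry and 41 passed the filter. By genotype with RANKL, 1 of the 41 was lower, against 1.82% of all genes, 0 were higher (0.516% of all genes), and the median difference was -0.02. The 1 was Ifnl2, which passed the filter only through the WT RANKL libraries. The 6 receptor chains, 11 kinases and factors, 16 upstream sensors and adaptors and 6 negative regulators held none that passed. At an unadjusted p under 0.05, 6 of these genes were lower and 1 was higher, beside 12.3% and 6.52% of all genes. Ifnar1 and Ifnar2, the chains of the type I receptor, differed by 0.38 and -0.36, and Ifngr1 and Ifngr2, the chains of the type II receptor, by -0.02 and 0.04. Irf1, a factor that interferon gamma induces, was at 135, 144 and 162 FPKM in WT and 114, 143 and 137 FPKM in Jmjd6-/- stroma (-0.12, SE 0.12, adjusted p = 0.642). Tmem173, the adaptor STING of cytosolic DNA sensing, came nearest among the adaptors, at 2.05, 20.9 and 20.4 FPKM in WT and 2.32, 12.4 and 11.6 FPKM in Jmjd6-/- stroma (-0.78, SE 0.14, adjusted p = 0.057).

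With RANKL, over both genotypes, 10 of the 41 pathway genes rose, where 10.5% of all genes did, and none fell, where 4.11% did. At an unadjusted p under 0.05, 3 were lower, against 11.9% of all genes. The 10 that rose included the receptor chain Ifngr2, the factor Irf4 (3.90, SE 0.36), the sensors, adaptors and nucleic acid enzymes Tmem173 (2.80, SE 0.21), Tlr3, Ikbke, Trex1 and Adar, and the inhibitors Socs1 and Socs3. Among these 10, the rises of Irf4 and Tmem173 were the largest, and those of the other 8 ranged from 0.41 to 0.95.

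Transcripts of the interferons themselves were scarce. Of 19 interferon genes with an entry, 12 were listed at 0 in all 6 libraries, and the highest value of any was 3.73 FPKM, of Ifnz in WT replicate 2. Ifnb1 was listed at 0.159 and 0.092 FPKM in the WT RANKL libraries, which is about 2.8 and 0.9 fragments, and at 0 in the 4 others. Ifng was at 0.140 and 0.114 FPKM in the WT RANKL libraries and at 0.037 and 0 in those of Jmjd6-/- stroma. Ifnl2, a type III interferon, was the 1 pathway gene with an adjusted p under 0.05 by genotype in the limma fit (0.034). Because it passed the filter only through the WT RANKL libraries, and the fit set a few fragments against values of 0, that p-value does not establish a difference. It was at 0.475 and 0.512 FPKM in the WT RANKL libraries, about 7.7 and 4.4 fragments, and was listed at 0 in the 4 others. By the estimated depth a 0 allows up to 0.202 and 0.266 FPKM in the Jmjd6-/- RANKL libraries, but 0.351 in the unstimulated Jmjd6-/- library, and Ifnl2 has a near-identical neighbour, Ifnl3. At these levels neither a difference nor its absence could be shown for Ifnb1 and Ifng. Of the plasmacytoid dendritic cell markers, a cell type known for making interferon, Siglech was listed at 0 in all 6 libraries. The list's summed level, nearly all of it Ly6d, was 36.2, 28.5 and 66.8 FPKM in WT and 115, 144 and 136 FPKM in Jmjd6-/- stroma. Apart from Ly6d, no marker of the list exceeded 2.16 FPKM in any library. Whether the Ly6d transcripts came from this cell type was not tested. Of the list's 6 markers 1, Klk1, was lower by the test.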

How the data were processed

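RNA was polyA-selected and sequenced in paired-end mode. The authors mapped the reads to mm10 with TopHat2 2.0.10 and deposited FPKM (fragments per kilobase of transcript, scaled to library size) from Cufflinks 2.1.1 in 1 table, with no read counts. The kit named keeps no strand, although a stranded setting was given to Cufflinks, and reads of overlapping genes on opposite strands cannot be told apart. Start positions in the table were moved by 1 base. Here log2(FPKM + 0.1) was fitted, for genes averaging 0.1 FPKM or more, by limma 3.58.1 (R 4.3.3) with 1 term a condition (for RANKL over both genotypes, additive terms for genotype and RANKL), intensity trend and Benjamini-Hochberg adjustment over 15894 genes. The fit was tested on simulated independent libraries with the same spread in both genotypes. Such data do not show how it behaves with unequal spreads or technical duplicates. An exact permutation of 2 against 2 libraries cannot go below 0.333, so none was used. Members and lists were chosen with earlier results of these data known. Genes named with every library's value were those lower by genotype, the 5 largest rises with RANKL, the 3 highest means, and Irf7, Irf9, Stat2, Isg15 and Cxcl10. Tmem173 and the interferons with nonzero values were named after their values were seen. Depth was estimated from steps between FPKM values up to 0.15 and a 0 was taken to allow 3 fragments, which covers counting error only. Alternatives were the constant, the filter, the trend, the scaling, a left-out library, a replicate block, other designs, and, added after seeing the data, a filter that drops only genes at 0 everywhere and removal of each library's trend in GC content and length. One gene of the pathway list is not reported here by name.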

Additional observations from a re-analysis of the deposited data

How the results depend on the processing

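Of 1450 recomputed values of the 25 genes given with every library's value 0 changed sign, though without WT replicate 1 the rise with RANKL in WT kept its sign in 45 of the 46 members, and the medians of the 46 members kept theirs under every alternative tried. Counts of calls moved more. The 20 members lower in Jmjd6-/- stroma with RANKL became 40 with additive terms over all 6 libraries, 37 with the GC and length trend removed, 8 with no intensity trend, and 0 with no filter (42 at an unadjusted p under 0.05) or with a filter that drops only genes at 0 everywhere, and leaving out 1 library gave 3 to 33. The rises over both genotypes became 19 of 42 with no filter. Those in WT became 0 of 27 with no filter (37 unadjusted), 1 when genes at 0 everywhere were dropped (Oas1a) and 12 with no trend. Those in Jmjd6-/- stroma became 0 of 35 with no filter (44 unadjusted), 5 when genes at 0 everywhere were dropped and 20 with no trend, and leaving out 1 library gave 19 to 37. The cause of these shifts was not tested. The unstimulated median of -1.46 became -1.23 with a constant of 1. Same-numbered libraries did not deviate together (r = -0.08 over 12587 genes), which cannot settle whether the numbers pair them. With a replicate block the genotype count was 39 and 4 members differed in response (Ifi27l2a, Rtp4, Isg15 and Igtp, chosen after their values were seen).

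Each genotype had 2 RANKL libraries, not known to be separate cultures, and 1 without RANKL. Of the members not lower by the test, Mx1, Zbp1, Ifit2 and Oasl2 had adjusted p-values from 0.0504 to 0.0512. By the estimated depth, no member's value rested on fewer than about 12.8 fragments.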
